A study of Mus musculus with 6 samples.

Results

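Foxj1, Foxn4, Rfx1, Rfx2, Rfx3, Rfx4, Myb, Ccno, E2f5 and Trp73 encode regulators of multiciliated cells, the cell type to which the ependymal cells lining the brain ventricles belong. These 10 genes, of 22374 on the array with a RefSeq symbol, were chosen by name, and the choice was made with their values known, Foxn4 being among the largest differences between the sorted fractions. They are represented by 15 of 55681 probes, and 7 of them by 1 probe each. Because the comparison of the fractions entered the choice, the differences of these 10 genes are given as a description, without a test.

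A multiciliated cell leaves the cell cycle, builds many centrioles and grows a motile cilium from each of them. Geminin-related coactivators work with E2F factors at the start of this program, MYB, FOXN4, p73 and the cyclin-like protein cyclin O act during the amplification of centrioles, and FOXJ1 and the RFX factors switch on the genes of the ciliary shaft. Cyclin O is not a transcription factor but is listed with them for this role. Foxn4 and Rfx4 are also known from neural progenitors, Foxn4 in the retina and spinal cord and Rfx4 in the developing brain, and Myb is best known from blood precursors.

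The RNA came from wild-type mouse cerebella of neonates of either sex, for which the sample labels give the strain CD1 and postnatal days 1 to 3, whereas the methods give a C57BL/6 background for wild-type mice and days 0 and 1. Cerebella were pooled and dissociated, and magnetic beads were used to obtain 50000 cells per sample. The A+/G+ fraction was enriched with beads against ACSA-2, an epitope on ATP1B2, and the A-/G+ fraction was obtained in 2 steps, by removing cells with L1CAM, ACSA-2, CD45, PSA-NCAM or Ter119 and then selecting for GLAST, the glutamate transporter encoded by Slc1a3. Each fraction was measured on 3 arrays with 1 dye, and the values below are quantile normalised signals on the log2 scale.

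A few properties of the arrays bear on every value. The 75th percentile of the deposited intensity lay between 329 and 332 on the A+/G+ arrays and between 55.9 and 250 on the A-/G+ arrays, with 26469 to 26654 probes marked by the scanner software as well above their background, here called detected, on the former and 18336 to 24730 on the latter. In both respects A-/G+ replicate 3 was nearest to the A+/G+ arrays. Slide 1 carried only A+/G+ samples and slide 2 only A-/G+ samples, and therefore slide and fraction cannot be told apart. A call required an adjusted p of 0.05 or less in limma (Benjamini-Hochberg, over all probes) together with fraction medians that were 4-fold or more apart. Over all 55681 probes, limma gave an unadjusted p under 0.05 for 12974 and an adjusted p within the limit for 5172. Of all genes, 2.77% were called in favour of A+/G+ and 0.42% in favour of A-/G+. The counts of the lists below stand beside these shares. Calls in favour of A+/G+ numbered 851 probes and those in favour of A-/G+ 222, whereas shifting the arrays to a common 75th percentile, without quantile normalisation, gave 604 and 938. That shift moved the median difference of all genes from -0.03 to -0.34 on the log2 scale. The astroglial markers were detected on all 6 arrays for 8 of 8 genes. Fabp7, a fatty acid binding protein of glial precursors, differed by 0.06 (SE 0.20), Aldh1l1, a folate enzyme of astrocytes, by -0.64 (SE 0.12) and Slc1a3 by -1.19 (SE 0.29). Fewer cells of a type and less RNA per cell cannot be told apart in these bulk samples.

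The mean signal of 7 of the 10 regulators was higher in A+/G+ and that of 3 was lower. The fractions did not overlap, with A+/G+ higher, for Foxj1, Foxn4, Ccno, Trp73, Myb and Rfx1, that is for 6 genes, and this held for 20.1% of all genes. They did not overlap, with A+/G+ lower, for Rfx3 and Rfx4, as for 22.8% of all genes. Foxj1, Foxn4 and Ccno met the limits for a call in A+/G+, 3 of 10 beside 2.77% of all genes, and 0 of 10 met them in A-/G+ beside 0.42% of all genes. As the fractions' difference was used in choosing the genes, nothing is read from these counts. The median difference of the 10 genes was 1.35 on the log2 scale, beside -0.03 for all genes. The 3 calls did not hold for every set of arrays: none was made without A+/G+ replicate 1 or without A+/G+ replicate 2, only Ccno was called without A+/G+ replicate 3 or without A-/G+ replicate 1, 2 genes were called without A-/G+ replicate 2, and 4 without A-/G+ replicate 3. All 10 genes were detected on every A+/G+ array, and 6 of them also on every A-/G+ array.

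**Figure D1:**
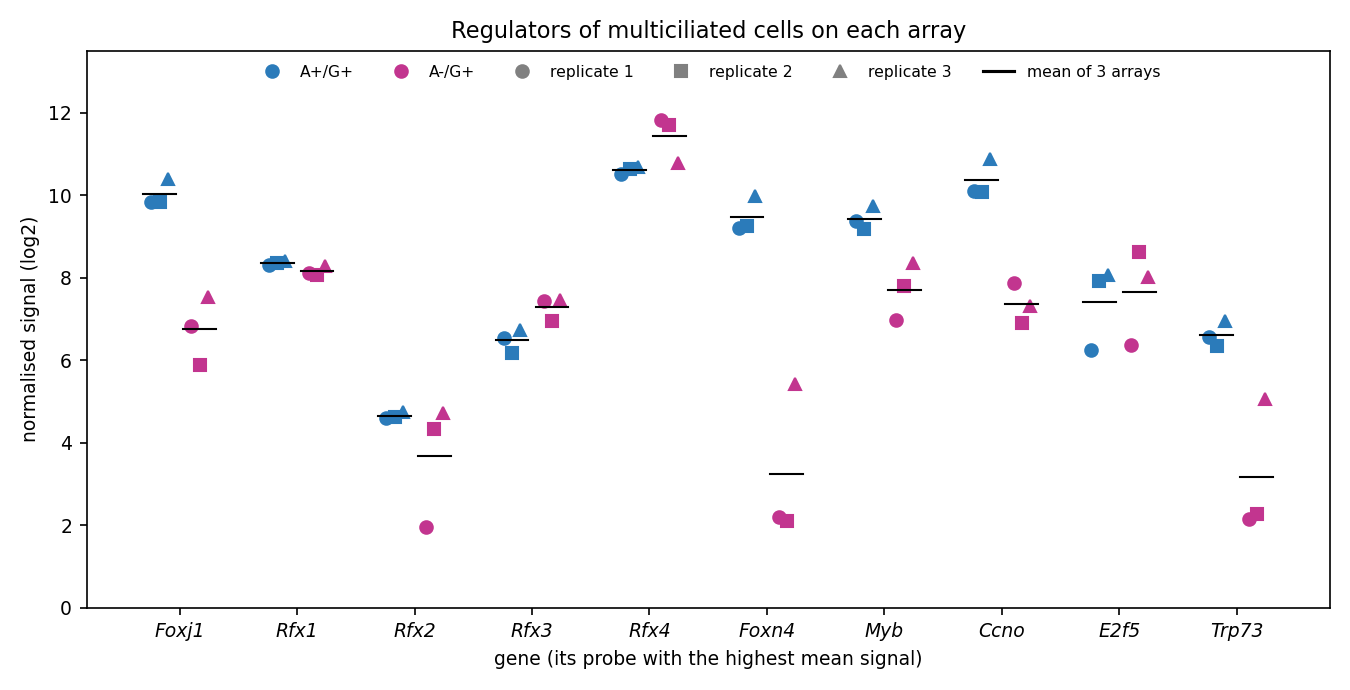
Normalised signal (log2) of the 10 regulators on each of the 6 arrays, for the probe of each gene with the highest mean signal. Marker shapes give the replicate number and short lines the mean of 3 arrays. Foxj1, Foxn4, Ccno, Trp73 and Myb sit higher on every A+/G+ array, whereas E2f5 and Rfx2 overlap and Rfx3 and Rfx4 sit lower. Heights are not comparable between genes, since each has its own probe.

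Foxj1 encodes the forkhead factor that motile cilia require. In the order of replicates 1, 2 and 3, its signal was 9.83, 9.83 and 10.40 in A+/G+ and 6.83, 5.88 and 7.54 in A-/G+. The fractions did not overlap, and the probe was detected on all 6 arrays. The mean difference was 3.27 in log2 units (SE 0.47) and the medians 7.99-fold. Against A-/G+ replicate 3 alone, the A-/G+ array with the highest signal, the mean of A+/G+ was 5.60-fold higher. The probe lies on the minus strand of mm9 at chr11:116192214-116192273.

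The RFX factors bind the X-box, a sequence element in front of many ciliary genes, and the 4 members of the family did not share a direction. Rfx1, the most widely expressed of them, had signals of 8.31, 8.35 and 8.41 in A+/G+ and of 8.11, 8.06 and 8.29 in A-/G+. These ranges did not overlap, but the difference of means was only 0.20 (SE 0.08) and the medians differed 1.18-fold. Rfx2, which is needed for ciliary genes in male germ cells, gave 4.59, 4.62 and 4.76 in A+/G+ and 1.96, 4.34 and 4.72 in A-/G+. Its fractions overlapped, it was detected on 1 A-/G+ array, and its difference of 0.98 (SE 0.78) rested on the low value of A-/G+ replicate 1, without which it was 0.13. With signals below background raised to the lowest signal detectable on their array, the difference of Rfx2 was -0.45. That limit was 5.64, 4.95 and 4.03 on the A-/G+ arrays and 3.52 to 3.61 on the A+/G+ arrays. Raising therefore lowers the difference of genes not detected in either fraction, and the median of all genes became -0.43.

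Rfx3, which is required for cilia of the embryonic node and of ependymal cells, was measured by 3 probes that were detected on all 6 arrays. The brightest of them gave 6.54, 6.18 and 6.72 in A+/G+ and 7.44, 6.96 and 7.46 in A-/G+. Every A+/G+ array was lower, by 0.80 in the mean (SE 0.21) and by 1.87-fold in the medians. The other probes differed by -0.68 (SE 0.32) and -0.13 (SE 0.15), and on both of them the fractions overlapped. The brightest probe has the highest coordinates of the 3 on the minus strand, at chr19:27900579-27900638 of mm9, whereas the others lie at chr19:27838940-27838999 and chr19:27842877-27842936. Its sequence is shown because it lies nearest the start of the gene and has a reading frame without a stop. The fractions were separated on this probe alone.
Rfx3 probe: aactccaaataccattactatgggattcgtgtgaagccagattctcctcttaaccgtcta

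Rfx4, a factor of neural progenitors and of dorsal midline structures, was measured by 2 probes and was lower in A+/G+ on both. Its brighter probe gave 10.51, 10.63 and 10.67 in A+/G+ and 11.82, 11.70 and 10.77 in A-/G+. The fractions did not overlap, although A-/G+ replicate 3 lay close to the A+/G+ arrays. The means differed by -0.82 (SE 0.30) and the medians 2.10-fold. The dimmer probe gave 7.48, 7.20 and 7.39 in A+/G+ and 9.09, 9.14 and 8.08 in A-/G+, a difference of -1.41 (SE 0.32) with medians 3.24-fold apart. Again the A-/G+ arrays of replicates 1 and 2 were high and replicate 3 lay between them and A+/G+. The 60 bases of this probe are annotated over 458 bases of mm9, at chr10:84331133-84331590 on the plus strand, so that it reads spliced RNA. They are shown by the same rule as for Rfx3, as this probe lies nearest the start of the gene.
Rfx4 probe: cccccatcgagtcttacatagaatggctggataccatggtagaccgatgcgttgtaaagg

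Foxn4, a forkhead factor of retinal and spinal interneuron progenitors that also acts with FOXJ1 in multiciliated cells, showed the largest difference of means of the 22374 genes. Its signal was 9.20, 9.25 and 9.99 in A+/G+ and 2.21, 2.10 and 5.42 in A-/G+. It was detected on all 3 A+/G+ arrays, but among the A-/G+ arrays only replicate 3 did. The difference of means was 6.24 (SE 1.01) and that of the medians 132-fold, values that depend on how signals under the background are treated. Against A-/G+ replicate 3 alone, where the gene was measured, the mean of A+/G+ was 16.7-fold higher, or 4.06 on the log2 scale. With signals below background raised to the lowest detectable signal of their array, the difference was 4.14 and the medians were 14.2-fold apart. So treated, Foxn4 was no longer first, as Deup1 and Fam183b, of lists described below, differed by 4.465 and 4.438. The difference of Foxn4 was 3.44 after normexp background correction, which compresses dim signals, and 5.40 after the 75th percentile shift. The probe lies at chr5:114704209-114704268 of mm9 on the minus strand.

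Myb, which is active early in multiciliated cell formation, gave 9.37, 9.18 and 9.74 in A+/G+ and 6.97, 7.80 and 8.36 in A-/G+. The fractions did not overlap, and the probe was detected on all 6 arrays. The difference of means was 1.73 (SE 0.39) and the medians were 2.97-fold apart, under the 4-fold limit. Since Myb is also a gene of blood precursors, blood markers were read on the same arrays. Their summed signal was 9710 to 17300 in A+/G+ and 6180 to 10300 in A-/G+, and none of 8 was called by limma, with an unadjusted p under 0.05 for 5 of them. Hba-a1 and Hbb-b1, the haemoglobin chains, differed by 1.57 (SE 0.50) and 2.12 (SE 0.48), and Kit, a receptor of blood precursors and of cerebellar interneurons, by -1.81 (SE 0.19). Gata1 and Ptprc were at background on all arrays. A+/G+ replicate 3, on which Myb was highest, had the lowest blood sum of that fraction, whereas in A-/G+ both were highest on replicate 3. The part of blood cells in the value of Myb was not tested.

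Ccno, whose loss reduces the number of cilia per cell, gave 10.10, 10.09 and 10.89 in A+/G+ and 7.86, 6.91 and 7.31 in A-/G+. No array of one fraction came near the other. The probe was detected on all 6 arrays, the difference of means was 3.00 (SE 0.35) and the medians were 6.89-fold apart. The fractions had similar spreads, with SDs of 0.46 (A+/G+) and 0.47 (A-/G+) over 3 arrays each. The probe lies at chr13:113780810-113780869 of mm9 on the plus strand.

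E2f5, a partner of the coactivators that start the program, did not separate the fractions. It gave 6.24, 7.93 and 8.06 in A+/G+ and 6.36, 8.62 and 8.01 in A-/G+, and replicate 1 was the low array in both. The difference of means was -0.25 (SE 0.81), with medians 1.06-fold apart. Its sign turned to 0.33 without A+/G+ replicate 1 and to 0.23 without A-/G+ replicate 2.

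Trp73 encodes p73, a relative of p53 that acts upstream of Foxj1 in airway multiciliated cells, and was measured by 3 probes. The brightest gave 6.56, 6.34 and 6.95 in A+/G+ and 2.16, 2.26 and 5.05 in A-/G+, and was detected on A-/G+ only in replicate 3. As for Foxn4, the A-/G+ arrays of replicates 1 and 2 were at the background. The difference of means was 3.46 (SE 0.87), and 1.40 with signals below background raised to the lowest detectable signal. Against A-/G+ replicate 3 alone the mean of A+/G+ was 2.96-fold higher. The gene met the limits for a call after the 75th percentile shift, without A-/G+ replicate 3, with dim probes left out or with the mean of its probes, but not as reported. A further probe gave 5.01, 5.12 and 5.42 in A+/G+ and 2.09, 2.09 and 4.47 in A-/G+, with a difference of 2.30 (SE 0.72). The dimmest probe was detected on 2 A+/G+ arrays and on 0 A-/G+ arrays, its fractions overlapped, and its difference was 0.87 (SE 0.55). All 3 lie between 153430443 and 153433157 on chromosome 4 of mm9.

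**Figure D2:**
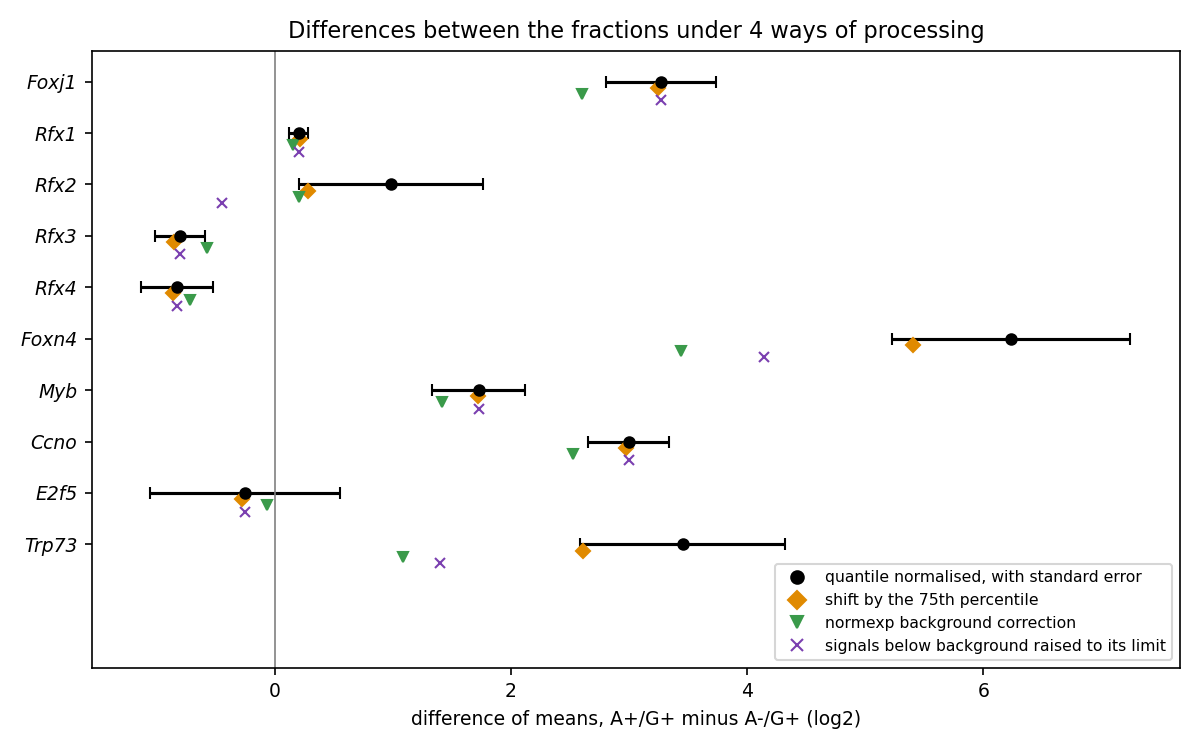
Difference of the mean log2 signals, A+/G+ minus A-/G+, of the 10 regulators under 4 ways of processing, with the standard error of the fit for the quantile normalised values. Foxj1 stayed between 2.60 and 3.27, whereas Foxn4 ranged from 3.44 to 6.24 and Trp73 from 1.08 to 3.46. Rfx2 fell to -0.45 when signals below background were raised to the lowest detectable signal, where the median of all genes was -0.43.

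Within each fraction, the order of the replicate arrays does not use the comparison of the fractions. In A+/G+ all 10 regulators, each read by its brightest probe, were highest on replicate 3, as were 22 of 23 structural genes of cilia. This held for 30.6% of the 14068 genes that were detected on all 3 arrays. With the 75th percentile shift these values were 9 of 10, 22 of 23 and 24.6%. The dimmer probes of Rfx3 were highest on replicates 1 and 2, and that of Rfx4 was highest on replicate 1. Those of Trp73 were highest on replicate 3. The step was large for Ccno, Foxn4 and Foxj1 and within 0.1 on the log2 scale for Rfx1 and Rfx4. In A-/G+ only 6 regulators could be ordered. Replicate 2 was lowest for Foxj1, Ccno, Rfx1 and Rfx3, that is for 4 of 6, as for 9 of 14 ciliary genes and 23.9% of 10964 genes. Myb was lowest on replicate 1 and Rfx4 on replicate 3. The genes on 1 array share its cells and its hybridisation, so these counts describe single arrays.

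**Figure D3:**
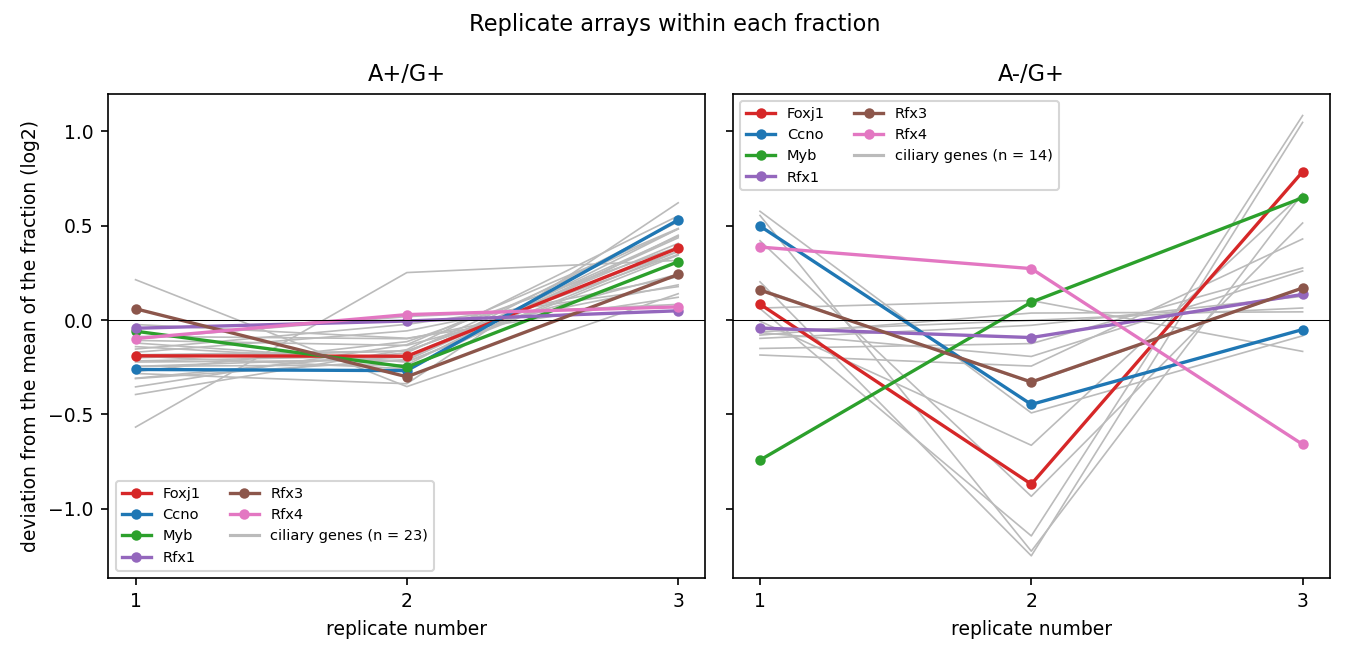
Deviation of each array from the mean of its fraction (log2) for the 6 regulators that were detected on all arrays and, in grey, for ciliary genes detected on all arrays of the fraction and on all A+/G+ arrays. Lines join the values of 1 gene, and replicate numbers have no order. On A+/G+ replicate 3 all 6 coloured genes lie above their mean; in A-/G+ Foxj1 falls with many ciliary genes on replicate 2, whereas Rfx4 is lowest on replicate 3.

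The genes whose profiles over the 6 arrays were nearest to that of Foxj1 were found among 14228 genes by the root mean square distance between mean-centred log2 signals. The centring used both fractions, so the distance includes the difference between them, which entered the choice of the regulators. The nearest to Foxj1 were D130043K22Rik at a distance of 0.165, Ccdc180 at 0.184, Ccdc113 at 0.205, Cfap45 at 0.212 and Cfap52 at 0.214. D130043K22Rik and Ccdc180 were detected on 0 A-/G+ arrays, so their distances and places rest on background signals there, whereas the other 3 were detected on all 6 arrays. Cfap52, a protein of the ciliary shaft, ranged from 9.78 to 10.62 in A+/G+ and from 5.55 to 7.85 in A-/G+, and like Foxj1 it was highest on replicate 3 of both fractions and lowest on A-/G+ replicate 2. Nearest to Foxn4 were Cfap299 at 0.182, Dmkn at 0.393, Pdyn at 0.565, Iqca at 0.616 and Dnah10 at 0.737. Each of these was detected on only 1 A-/G+ array, so their distances rest on background signals on the other A-/G+ arrays. Cfap299 gave 9.04, 9.07 and 9.88 in A+/G+ and 2.05, 2.16 and 5.75 in A-/G+, so it too was measured in A-/G+ on replicate 3 and was at the background on the others. Dnah10, a dynein heavy chain of the ciliary shaft, and Pdyn, the precursor of an opioid peptide, shared this pattern.

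Structural genes of cilia, the readout of FOXJ1 and RFX factors, were called higher in A+/G+ for 10 of 23 genes, beside 2.77% of all genes. In A-/G+ 0 of 23 were called, beside 0.42% of all genes, and 14 of the 23 passed the adjusted p alone. This list and the other gene lists were chosen with earlier results of these data known, so nothing is read from such counts. The means of the ciliary genes were higher in A+/G+ for 22 genes, and their median difference was 2.47, beside -0.03 for all genes. With signals below background raised to the lowest detectable signal the median was 1.82, beside -0.43 for all genes. After normexp correction it was 1.33, beside -0.004 for all genes. Dynlrb2, a light chain of the dynein motors, rose by 3.80 (SE 0.63, adjusted p = 0.0304 from limma), Dnali1, a light intermediate chain of the inner arms, by 3.72 (SE 0.48, adjusted p = 0.0175; detected on 1 A-/G+ array, and 3.54 with undetected signals raised) and Rsph1, a radial spoke protein, by 3.67 (SE 0.59, adjusted p = 0.0283). Dnah5, an outer arm heavy chain, was called as well (adjusted p = 0.00479 from limma), but was not detected on any A-/G+ array, which gives a level at least 1.88-fold higher in A+/G+. Hydin, of the central pair, differed by 3.82 (SE 0.82) with an adjusted p of 0.0553 from limma. It was detected on 1 A-/G+ array, and its difference was 1.59 with undetected signals raised. Ift172, Dync2li1 and Bbs4, chosen after their values were seen, serve primary cilia as well, and differed by -0.08, 0.15 and 0.21. The number called fell to 2 without any 1 of the A+/G+ replicates and to 4 without A-/G+ replicate 1. It was 8 without A-/G+ replicate 2 and 15 without A-/G+ replicate 3.

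Of 12 other regulators of centriole amplification, limma called 2 in favour of A+/G+, beside 2.77% of all genes, and 0 of A-/G+, beside 0.42%. The median of the list was -0.01. Cdc20b, a deuterosome protein, gave 6.86, 6.81 and 7.73 in A+/G+ and 2.43, 2.10 and 4.54 in A-/G+, a difference of 4.11 (SE 0.74, adjusted p = 0.0374 from limma). It was detected on 1 A-/G+ array, and its difference was 2.09, with medians 3.77-fold apart, when undetected signals were raised to the lowest detectable signal. Ccdc78, also of deuterosomes, was called (adjusted p = 0.0337 from limma) with 3.91, 4.65 and 5.32 in A+/G+, but was not detected on any A-/G+ array, where the lowest detectable signals were too high to bound a fold. Deup1, the scaffold of the deuterosome, gave 11.03, 11.10 and 11.93 in A+/G+ and 7.91, 2.00 and 7.81 in A-/G+. Its difference of 5.45 (SE 1.78) did not pass (adjusted p = 0.148 from limma), and A-/G+ replicate 2 stood far below the other arrays. Among the centriole duplication genes, Cep152, named after its values were seen, passed the adjusted p but not the size limit, at -0.57 (SE 0.10, adjusted p = 0.0333 from limma). Sass6 differed by -1.03 (SE 0.25, adjusted p = 0.0775 from limma) and Plk4 by 0.78 (SE 0.67, adjusted p = 0.555 from limma). With undetected signals raised Plk4 differed by -0.03, beside a median of -0.43 for all genes. Mcidas, the coactivator multicilin, named after its values were seen, gave 10.85, 10.51 and 10.68 in A+/G+ and 12.43, 10.49 and 10.28 in A-/G+, with A-/G+ replicate 1 above all other arrays. Gmnc was detected on 1 array and E2f4 on 0 arrays, so these probes carry little. No gene of this list was called when any 1 of the A+/G+ arrays or A-/G+ replicate 1 was left out. Only Deup1 was called without A-/G+ replicate 2, and Cdc20b and Ccdc78 were called without A-/G+ replicate 3.

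Among 18 relatives of the regulators by sequence family, limma called 0 in either direction, beside 2.77% and 0.42% of all genes. An unadjusted p was under 0.05 for 4 of 18, beside 12974 of 55681 probes. The methods' t-test called 0 as well, and the median difference was -0.03. Trp63, the p53 relative of stratified epithelia, differed by -1.57 (SE 0.50, adjusted p = 0.14 from limma), the opposite sign to Trp73. E2f8, a repressor of the cell cycle, passed the adjusted p but not the size limit, with a difference of -0.94 (SE 0.15, adjusted p = 0.0266 from limma). Mybl2, a MYB relative of dividing cells, differed by -0.73 (SE 0.25, adjusted p = 0.166 from limma). Mybl1 differed by 1.04 (SE 0.50) but was not detected on any array. Rfx5 differed by 0.70 (SE 0.67) and was not detected on any A-/G+ array. With undetected signals raised, Mybl1 differed by -1.30 and Rfx5 by -0.84, beside a median of -0.43 for all genes. Trp53, named after its values were seen, differed by -0.70 (SE 0.32). Without A-/G+ replicate 3, 1 relative was called lower in A+/G+.

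Of 10 genes that act with or after Foxn4 in interneuron progenitors, limma called 1 higher in A-/G+, beside 0.42% of all genes. It called 0 higher in A+/G+, beside 2.77% of all genes, with an unadjusted p under 0.05 for 3 of 10. Ptf1a, which directs progenitors to GABAergic neurons, gave 7.14, 7.71 and 7.79 in A+/G+ and 10.32, 10.64 and 9.73 in A-/G+, a difference of -2.69 (SE 0.31, adjusted p = 0.0134 from limma). Prox1 at -1.71 (SE 0.33, adjusted p = 0.0431 from limma) passed the adjusted p but not the size limit. Dll4, a Notch ligand, differed by 2.26 (SE 0.97), Gata2 by 2.20 (SE 0.91) and Tal1 by 1.45 (SE 1.09), with adjusted p of 0.263, 0.242 and 0.519 from limma, and each was detected on 1 A-/G+ array. With undetected signals raised these differences were 0.55, -0.04 and 0.21, beside a median of -0.43 for all genes. The median difference of the list was 0.30 and turned to -0.68 with the 75th percentile shift. Ptf1a was not called without A+/G+ replicate 2 or without A+/G+ replicate 3, and 3 genes were called without A-/G+ replicate 3.

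Markers of other cells in the fractions were read on the same arrays. Of 10 ependymal markers other than motor proteins, 4 were called, all of them higher in A+/G+, where 2.77% of all genes were called. They were Tmem212, Fam183b, Rarres2 and 1110017D15Rik, and the median of the list was 2.44. The summed signal of the 10 markers was 22000 to 29100 in A+/G+ and 7590 to 14000 in A-/G+. In A+/G+ it was highest on replicate 3 and in A-/G+ lowest on replicate 2, the arrays on which Foxj1 was highest and lowest. Mia, Cd24a and Pltp, the brightest of the list, differed by 1.23, -0.10 and -0.31, and limma called none of them (adjusted p = 0.222, 0.724 and 0.289). Choroid plexus epithelium, which also bears several cilia per cell, gave 0 calls of 10 by limma, with an unadjusted p under 0.05 for 1 of 10. Its summed signal was 25200 to 39900 in A+/G+ and 24000 to 57700 in A-/G+, so the ranges overlapped. Ttr, Folr1 and Otx2, its brightest markers, differed by -0.48, -0.60 and 0.57. A+/G+ replicate 3, on which the regulators were highest, had the lowest choroid plexus sum of its fraction. In A-/G+ that sum was lowest on replicate 2, the array on which Foxj1 was lowest as well. The part of ependymal or choroid plexus cells in the values of the regulators was not tested.

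Of 8 genes of dividing cells limma called 0, beside 2.77% of all genes in favour of A+/G+ and 0.42% in favour of A-/G+. An unadjusted p was under 0.05 for 7 genes, and 3 passed the adjusted p, lower in A+/G+. Among all 55681 probes these limits were met by 12974 and 5172. All 8 means were lower in A+/G+, with a median of -0.69. Mki67, Pcna and Birc5 differed by -0.78, -0.29 and -0.42. Granule neuron markers gave 0 calls of 6 by limma, with an unadjusted p under 0.05 for 2 of 6, and Zic1, Pax6 and Barhl1 differed by -0.60, -1.54 and 1.10. Of the astroglial list only Gfap was called, higher in A+/G+, with a difference of 3.03 (SE 0.40, adjusted p = 0.0182 from limma). Atp1b2, which encodes the ACSA-2 antigen used for sorting, was named after its values were seen. It differed by 2.16 (SE 0.18, adjusted p = 0.00725 from limma), with medians 3.95-fold apart, just under the 4-fold limit.

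**Figure D4:**
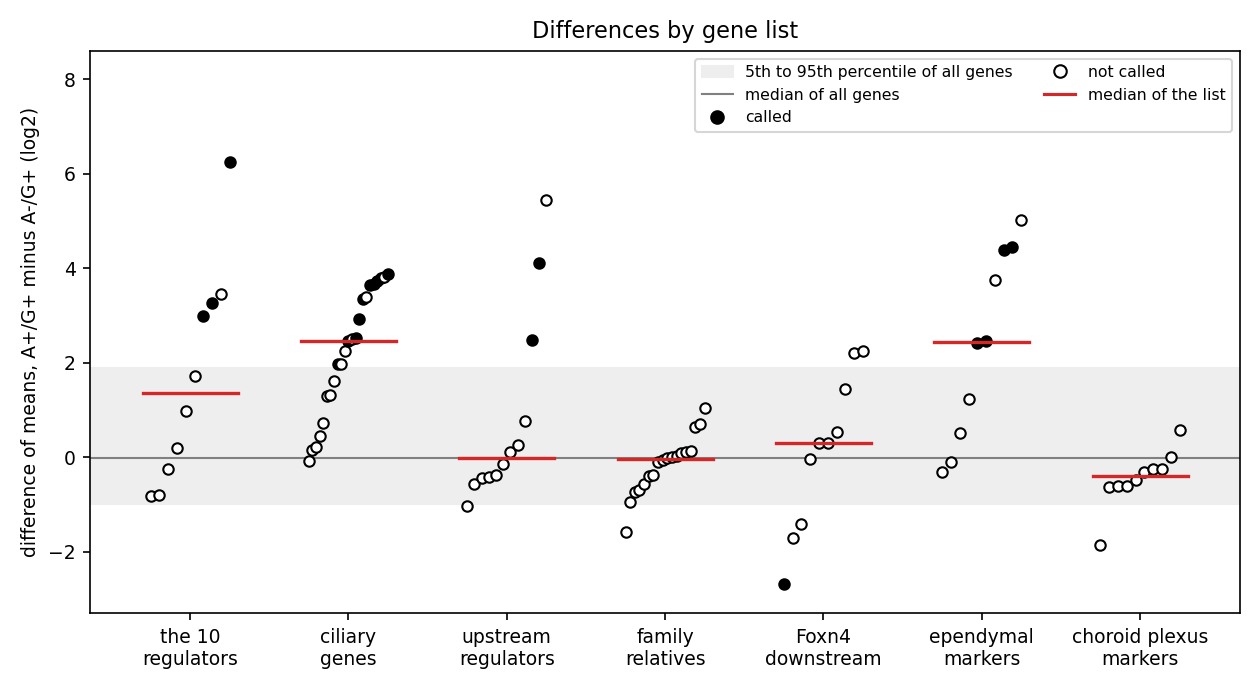
Difference of the mean log2 signals, A+/G+ minus A-/G+, for each gene of 7 lists, with the median of each list in red, called genes as filled points and the 5th to 95th percentile of all genes in grey (-0.99 to 1.90). Most of the ciliary genes lie above the grey band, whereas the family relatives and choroid plexus markers lie in or below it.

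The promoters of the regulators were searched for the X-box that RFX factors bind. The letters GTTNCCNNNGNNAC were sought on both strands in the 250 bases before the start of transcription, in RefSeq promoters of GRCm38.p6, of which 1.82% held a match. Of the 10 regulators 8 were matched to this table, and 1 of them, Ccno, held the motif, from 219 to 206 bases before its start. The shorter form GTTGCC, which overlaps the X-box of Ccno and was found in 10.4% of promoters, was also in Rfx2, from 116 to 111 bases before its start. The promoters of Ccno (chr13:112987552-112987801, plus strand) and Rfx2 (chr17:56831009-56831258, minus strand) are shown with these matches in capitals.
Ccno promoter: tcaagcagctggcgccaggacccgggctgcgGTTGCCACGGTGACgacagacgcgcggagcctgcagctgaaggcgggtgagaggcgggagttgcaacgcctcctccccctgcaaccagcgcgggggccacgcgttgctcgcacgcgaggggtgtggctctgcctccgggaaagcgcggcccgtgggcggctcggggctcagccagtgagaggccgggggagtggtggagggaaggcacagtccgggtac
Rfx2 promoter: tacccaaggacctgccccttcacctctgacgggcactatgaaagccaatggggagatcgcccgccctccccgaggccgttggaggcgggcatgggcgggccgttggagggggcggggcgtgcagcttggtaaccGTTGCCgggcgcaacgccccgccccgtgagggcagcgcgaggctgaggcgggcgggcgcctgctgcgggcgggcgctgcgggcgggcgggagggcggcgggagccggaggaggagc

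Of the ciliary genes 17 of 23 were matched to the promoter table, and 3 of them, Hydin, Tekt1 and Tekt4, held the X-box. Of the other regulators of centriole amplification 11 of 12 were matched, and Deup1 held it. The stretches around these matches, on the strand of each gene, are shown for comparison with that of Ccno. Those of Hydin (chr8:110266943-110266976) and Tekt1 (chr11:72361883-72361910) end at the base before the start, and those of Deup1 (chr9:15627907-15627946) and Tekt4 (chr17:25471417-25471456) lie farther away.
Hydin: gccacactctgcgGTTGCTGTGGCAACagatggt
Deup1: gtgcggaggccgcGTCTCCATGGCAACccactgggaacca
Tekt1: ttgcgtccgtccgGTTGCCATAGAGACc
Tekt4: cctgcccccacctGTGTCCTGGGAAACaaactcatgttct
The matches of Hydin, Deup1 and Tekt4 read as the motif on the opposite strand. The forkhead letters GTAAACA, found in 3.17% of promoters, were in 0 of the 8 regulators, and so were the E2F letters TTTNNCGC, found in 4.28%. The MYB letters AACNGNC, found in 27.7%, were in 5 of the 8, namely Foxn4, Rfx2, Rfx3, Rfx4 and Trp73. These matches describe letters in a window and are not measured binding sites.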

How the data were processed

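Gene expression was measured in 6 samples of sorted cells on Agilent mouse arrays with 1 dye. The authors deposited 2 kinds of values: spot intensity, background corrected by Feature Extraction 10.7.3.1, and quantile normalised log2 values, of which 38 cells are empty and which served as an alternative. From the intensity, log2 signals were computed without control and outlier spots, arrays were quantile normalised, and replicate spots were averaged for each of 55681 probes. The fit was made in limma 3.58.1 under R 4.3.3 and was tested on simulated data. The limits for a call follow the study's methods, in which a t-test stood in place of limma. Among several probes of a gene the brightest, by the mean over 6 arrays, was read. The members and gene lists were chosen with earlier results of these data known.

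Named are all probes of the 10 regulators, up to 5 genes of each gene list with the largest differences and the called regulators of centriole amplification. Also named are the 3 brightest genes of each marker list and the 5 genes nearest to Foxj1 and to Foxn4. Further genes, Atp1b2 and Trp53 among them, were named after their values were seen. All 113 list entries were found on the array. Where a gene was not detected in a fraction, its level there was bounded on each array by the lowest signal well above background, or by the gene's own signal if higher. Probe positions come from the array's own mm9 annotation. Gene models of mm9 were not used here, so exons and UTRs are not given. Replicates are the labels' biological replicates. The number of arrays limits the precision.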

Additional observations from a re-analysis of the deposited data

How the results depend on the processing

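As reported, 1073 probes, 3 regulators, 10 ciliary genes and 2 regulators of centriole amplification were called. The calls also held 1 gene downstream of Foxn4, 0 family relatives and 5 cell type markers, among them the astroglial Gfap. Normexp correction gave 282 probes, 5 ciliary genes and 1 regulator of centriole amplification. The 75th percentile shift gave 1 regulator of centriole amplification. The methods' t-test gave 608 probes, 1 of the 10 regulators, 4 ciliary genes, 0 regulators of centriole amplification (5 at an unadjusted p under 0.05) and 2 markers. The adjusted p alone gave 5172 probes, 1 family relative, 3 genes downstream of Foxn4 and 12 markers. With dim probes left out 8 markers were called. Raising signals below background to the lowest detectable signal, an alternative added after seeing the data, gave 9 markers and 1 regulator of centriole amplification.

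Leaving out 1 array at a time gave 417 to 1948 probes, 0 to 4 of the 10 regulators, 2 to 15 ciliary genes, 0 to 2 regulators of centriole amplification, 0 to 1 family relatives, 0 to 3 genes downstream of Foxn4 and 1 to 9 markers. The higher ends came without A-/G+ replicate 3.

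The deviations of arrays with the same replicate number correlated at 0.0877, 0.0557 and 0.00579. Those of arrays with different numbers correlated at -0.0748 to 0.0357. Such weak correlations cannot tell whether samples with the same number belong together, and the reported fit does not pair them. With the replicate number as a block limma called 0 probes, and 11671 of 55681 had an unadjusted p under 0.05. It called 0 of the 10 regulators (6 at such a p), 0 ciliary genes (20) and 0 regulators of centriole amplification (7). It also called 0 genes downstream of Foxn4 (4) and 0 markers (23), while the differences stayed as reported. The regulators were chosen with this comparison known, so nothing is read from their count. The signs of Foxj1, Foxn4, Rfx1, Rfx3, Rfx4, Myb, Ccno and Trp73 were the same under all 13 alternatives, and E2f5 turned in 2 of them and Rfx2 in 1. The low signal of the A-/G+ arrays limits the values of Foxn4, Trp73 and Rfx2.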
